A study of Mus musculus with 18 samples.

Results

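The 10 genes Atf4, Atf3, Ddit3, Trib3, Asns, Psat1, Phgdh, Chac1, Sesn2 and Ddit4 of the stress and amino acid response were examined in bone marrow-derived macrophages (BMDMs) kept in coculture with renal tubular epithelial cells (TECs). They were found by gene symbol and matched 11 of the 25926 entries of the expression table. Ddit3 was listed under 2 identifiers. The entry ENSMUSG00000116429, a short gene model inside Ddit3, was above 0 in 1 of 18 samples with a highest value of 0.0141, so ENSMUSG00000025408 was used for Ddit3.

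ATF4 is a transcription factor of the bZIP family whose protein is made mainly when the translation factor eIF2α is phosphorylated, as happens under amino acid shortage, endoplasmic reticulum (ER) stress, haem shortage or viral RNA. It binds with C/EBP-type partners at composite DNA elements and raises genes for amino acid synthesis, amino acid uptake and tRNA charging. Because much of this control lies in translation, the Atf4 mRNA is only part of the activity of the pathway, and no protein was measured here. Ddit3 (CHOP) and Atf3 are further bZIP factors of the response, and Trib3 is a pseudokinase that ATF4 and CHOP induce and that holds them in check. Asns makes asparagine, Phgdh carries out the first step of serine synthesis and Psat1 the following step. Chac1 degrades glutathione, whereas Sesn2 and Ddit4 (REDD1) restrain the growth kinase complex mTORC1.

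The BMDMs came from C57BL/6J mice and had matured for 7 days with 50 ng/mL M-CSF. They were then kept in Transwell inserts (0.4 μm pores) over TECs, so that the 2 cell types shared medium without mixing. In NC, BMDMs given PBS lay above TECs without crystals. In COM, BMDMs given PBS lay above TECs that had received calcium oxalate monohydrate crystals (COM, 100 μg/mL) over 24 h. In COM+Met, BMDMs given 5 mM Met for 24 h lay above TECs with COM crystals. The labels do not spell out Met. Each group had 6 samples, and the labels do not say whether these were separate mice or cultures, so that p-values measure only how these samples scatter, part or all of which may be technical. The comparison of COM with NC shows the state of BMDMs above crystal-exposed TECs, and that of COM+Met with COM shows the state with Met added. Both use the COM samples, and COM+Met against NC shares samples with each of them.

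Values were FPKM, which are fragments scaled to gene length and to the total of each sample. The read depth behind them is unknown. Libraries of a group did not all resemble each other. Over 10751 genes, Pearson correlations within COM+Met were 0.989 to 0.995, whereas NC-5 and NC-6 correlated with NC-1 to NC-4 at 0.938 to 0.962. COM-4 and COM-5 correlated with COM-1 to COM-3 at 0.948 to 0.951, and COM-6 with the other COM samples at 0.888 to 0.935. All 8 macrophage markers averaged 1 FPKM or more in each group, with Lyz2 the highest, but their levels differed between groups. In COM against NC, 3 of the 8 passed higher (as defined below, beside 12.7% of all genes) and 1 lower (beside 40.6%). Adgre1 was at 112 FPKM in NC and 577 in COM, Fcgr1 at 8.05 and 83.7, Cd14 at 64.7 and 401, and Mertk at 19.0 and 9.93. With Met, Cd68 was higher than in COM (741 to 1085 FPKM) and Itgam lower (283 to 152 FPKM). Markers of other cells also moved with the groups. The summed FPKM of 11 neutrophil markers was 535 to 1017 in NC, 170 to 552 in COM and 74.0 to 137 in COM+Met. The sum of 14 tubular epithelial markers was 10.96 to 18.4 in NC, most of it Cdh1, 0.468 to 1.37 in COM and 0.0575 to 0.332 in COM+Met, with 3, 7 and 9 of the 14 at 0 in every sample of the group. For 7 stromal markers, the sum was 14.4 to 60.4, 4.61 to 36.7 and 2.33 to 7.33. Not every gene followed these sums (the 2 that follow were named after their values were seen). Pdgfrb averaged 1.06 FPKM in NC, 4.81 in COM and 2.93 in COM+Met, the 1 of 5 stromal markers tested that was higher in COM than in NC. Among 7 neutrophil markers tested the 1 higher was Camp, at 4.33 FPKM in NC and 7.93 in COM, which did not pass. The part of these markers in the results on the 10 genes was not tested. In bulk RNA, fewer cells of a type and less RNA per cell cannot be told apart.

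The promoters of 4 of the 10 genes hold the core of the C/EBP-ATF response element, the composite site at which ATF4 binds with a C/EBP partner. The core was searched as TGATGNAA on both strands of the RefSeq windows on GRCm38.p6, which run from 250 bases before to 50 bases after each transcription start. It was found in Asns, Atf3, Chac1 and Trib3, and in 3.97% of 32851 windows of mouse genes. The 4 stretches are shown because they carry the only matches. Capitals mark the match, which in Atf3, Chac1 and Trib3 lies on the opposite strand and so reads as the reverse complement. Counted from the transcription start, it begins in Asns at -23 (chr6:7693210-7693273, minus strand), in Atf3 at -110 (chr1:191183395-191183484, minus strand), in Chac1 at -193 (chr2:119351008-119351097, plus strand), and in Trib3 at 15 (chr2:152344028-152344057, minus strand).
Asns: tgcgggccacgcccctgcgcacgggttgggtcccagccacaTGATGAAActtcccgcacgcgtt
Atf3: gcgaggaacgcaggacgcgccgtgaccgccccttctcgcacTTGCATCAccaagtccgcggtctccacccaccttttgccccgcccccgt
Chac1: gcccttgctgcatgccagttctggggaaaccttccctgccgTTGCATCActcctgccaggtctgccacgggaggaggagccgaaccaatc
Trib3: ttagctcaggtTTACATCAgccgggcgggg

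The cAMP response element TGACGTCA, which other ATF and CREB factors bind, was found in 0 of the 10 genes and in 1.79% of windows. The CCAAT box, searched as CCAAT on both strands, was found in 8 of the 10 genes and in 37.4% of windows. It was absent from the windows of Asns and Trib3, and it did not overlap any of the 4 matches above. These are matches of letters in 1 window per start (Psat1 had 2 windows), and the window does not cover introns or distant elements.

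**Figure D1:**
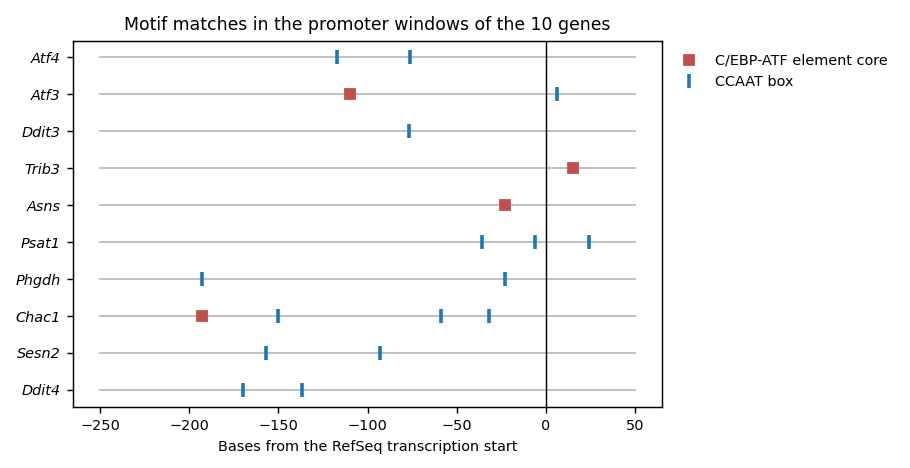
Position of the motif matches in the promoter windows of the 10 genes, in bases from the RefSeq transcription start (horizontal axis). Squares mark the core of the C/EBP-ATF response element, found in Atf3, Trib3, Asns and Chac1, and ticks mark CCAAT boxes, found in 8 genes.

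In NC, the 10 genes spanned more than 2 orders of magnitude in FPKM, which is a level per gene length. Atf4 had the highest mean, 71.4 ± 7.32 FPKM (SD, n = 6), followed by Atf3 with 65.9 ± 5.91, and their ranges overlapped. Phgdh followed with 46.6 ± 30.4 and Psat1 with 17.2 ± 9.54, both with a wide spread. Asns at 11.1 ± 2.16 and Ddit3 at 10.3 ± 0.892 did not differ beyond their spread, nor did Sesn2 at 5.76 ± 0.921 and Ddit4 at 5.09 ± 1.77. Trib3 at 1.64 ± 0.255 and Chac1 at 0.529 ± 0.320 were lowest. In COM, Atf4 at 94.4 ± 21.7 and Atf3 at 93.4 ± 74.2 could not be ordered. Ddit3 at 35.2 ± 15.8 had a higher mean than Phgdh at 19.1 ± 6.33, and their ranges overlapped. Asns at 11.9 ± 0.895 and Ddit4 at 8.12 ± 3.84 followed, then Sesn2 at 4.88 ± 1.39, Trib3 at 3.03 ± 1.72, Psat1 at 1.84 ± 0.764 and Chac1 at 0.540 ± 0.335. In COM+Met, Atf4 at 145 ± 10.1 and Atf3 at 117 ± 5.12 were again the highest, Ddit3 at 77.5 ± 10.5 followed them as in COM, and Chac1 at 1.72 ± 0.421 stayed lowest.

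**Figure D2:**
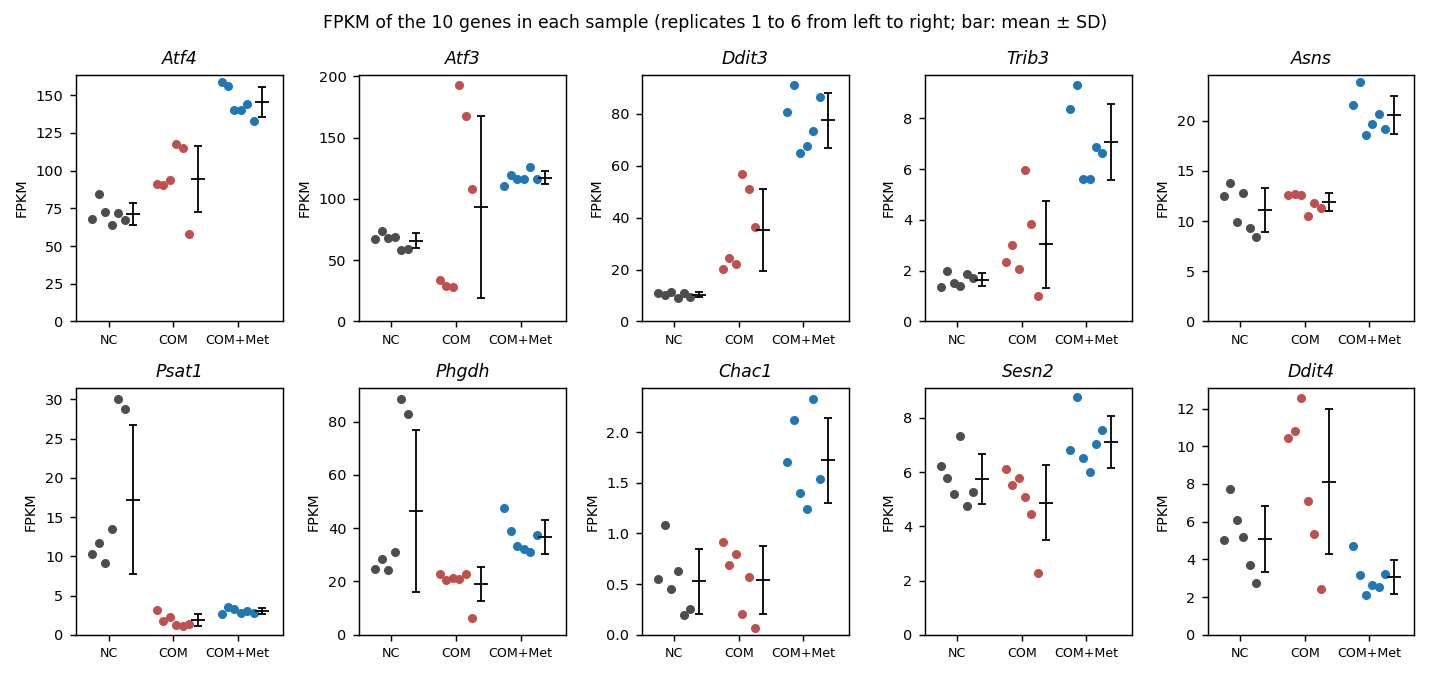
FPKM of each of the 10 genes (vertical axis, starting at 0) in the 6 samples of NC, COM and COM+Met, replicates 1 to 6 from left to right, with the mean ± SD beside them. Ddit3 rises from about 10 FPKM in NC to between 65.1 and 91.1 in COM+Met without overlap, Atf3 in COM splits into 3 samples below and 3 above the NC range, and Psat1 is low in COM and COM+Met.

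Above crystal-exposed TECs, the 10 genes did not move together. Of 9 genes tested (those averaging 1 FPKM or more in the 12 samples), Ddit3 was higher in COM than in NC, and Psat1 and Phgdh were lower. A gene passed at an adjusted p below 0.05 in limma on log2(FPKM + 1), adjusted over all 10900 genes tested, of which 12.7% passed higher and 40.6% lower. The median change of all genes was -0.27 on the log2 scale, so that a gene at 0 stood above most others. The genes Ddit3, Psat1 and Phgdh also changed by at least 2-fold, as did 5.99% of all genes in the higher and 11.7% in the lower direction. The 6 samples of each group did not overlap for these 3 genes, which held for 38.2% of all genes.

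Ddit3, which encodes a factor of prolonged stress, lay between 9.10 and 11.2 FPKM in NC (median 10.6) and between 20.2 and 57.0 in COM (median 30.4). All 6 COM samples were above all NC samples. COM-1 to COM-3 held the 3 lowest values of the group (20.2 to 24.5) and COM-4 to COM-6 the 3 highest (36.4 to 57.0). The rise was 1.57 on the log2(FPKM + 1) scale (SE 0.24, 95% interval 1.05 to 2.08, adjusted p = 0.000159), and the exact permutation test gave p = 0.00216, the smallest that 6 against 6 samples allow. On the mouse genome Ddit3 overlaps Mars, the methionyl-tRNA synthetase gene on the opposite strand, and the library kit does not keep strand, so that reads of their overlap cannot be told apart. Mars was at 13.4 FPKM in NC and 10.9 in COM (log2 change -0.32, adjusted p = 0.255) and at 13.6 in COM+Met.

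The pair of serine synthesis enzymes was lower in COM. Psat1, phosphoserine aminotransferase, lay between 9.18 and 30.0 FPKM in NC (median 12.6) and between 1.15 and 3.12 in COM (median 1.60). The groups were far apart, with NC-5 and NC-6 the 2 highest at 30.0 and 28.7. Psat1 fell by 2.57 on the log2 scale (SE 0.29, adjusted p = 1.75e-05), the 126th largest fall of 10900 genes. Phgdh, phosphoglycerate dehydrogenase, lay between 24.3 and 88.6 FPKM in NC (median 29.6) and between 6.36 and 22.8 in COM (median 21.2). The 2 highest NC values were again those of NC-5 and NC-6, at 88.6 and 82.8, and the lowest COM value was that of COM-6. Phgdh fell by 1.12 (SE 0.39, 95% interval -1.97 to -0.26, adjusted p = 0.0301, exact permutation p = 0.00216). Without NC-5 and NC-6 the change was -0.57 with an adjusted p of 0.154, and it also missed the threshold without NC-5 alone (0.0668), NC-6 alone (0.0668), COM-6 (0.0522) or COM-4, COM-5 and COM-6 (0.134). With sample weights the change was -0.37 (adjusted p = 0.0925). The Phgdh to Psat1 ratio was 2.31 to 2.95 in NC and 4.53 to 19.7 in COM, with no overlap.

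Atf4 itself lay between 63.7 and 84.8 FPKM in NC (median 69.8) and between 57.8 and 118 in COM (median 92.6). Of the COM samples, 5 were above all NC samples, and COM-6 at 57.8 was below all of them. The change of 0.37 (SE 0.16, 95% interval 0.03 to 0.71) missed the threshold (adjusted p = 0.0644). Without COM-6 it was 0.50. COM-6 was the lowest COM sample for Atf4, so leaving it out could only raise the change, and no p-value is given. Trib3 had a like arrangement, with 1.35 to 1.97 FPKM in NC, 5 COM samples between 2.05 and 5.97, and COM-6 at 1.01. Its change of 0.51 (95% interval 0.003 to 1.02, adjusted p = 0.0828) was 0.69 without COM-6. That sample was again the lowest of COM, so no p-value is given for that fit.

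Atf3, a factor induced within hours by many stresses, split the COM group. The NC samples lay between 58.4 and 73.4 FPKM (median 67.6). COM-1, COM-2 and COM-3 were at 33.9, 29.1 and 28.2, below every NC sample, and COM-4, COM-5 and COM-6 were at 193, 168 and 108, above every NC sample. The mean change of 0.05 (95% interval -0.96 to 1.07, adjusted p = 0.928) therefore described neither set. Without COM-4, COM-5 and COM-6 it was -1.09, and without COM-1, COM-2 and COM-3 it was 1.20. The 2 sets were seen in these data and Atf3 itself divides along them, so no p-value is given for either. What differs between the 2 sets of COM samples is not given by the labels.

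The remaining genes missed the threshold in COM against NC. Ddit4 lay between 2.73 and 7.75 FPKM in NC (median 5.11) and between 2.42 and 12.6 in COM (median 8.77). COM-1 to COM-3 were above all NC samples, at 10.4 to 12.6, and COM-6 was below all of them. The change was 0.50 (95% interval -0.19 to 1.18, adjusted p = 0.200), 0.75 without COM-6 and -0.07 without COM-1, COM-2 and COM-3. COM-6 held the lowest COM value and COM-1 to COM-3 the highest, so no p-value is given for either fit. Sesn2 lay between 4.75 and 7.33 FPKM in NC and between 2.29 and 6.12 in COM, with overlapping groups (change -0.23, 95% interval -0.61 to 0.14, adjusted p = 0.271). Asns lay between 8.45 and 13.8 FPKM in NC, and the COM samples, at 10.5 to 12.7, lay inside that range (change 0.11, 95% interval -0.15 to 0.37, adjusted p = 0.453). Chac1, below the filter, was at 0.196 to 1.09 FPKM in NC and 0.0699 to 0.913 in COM (exact permutation p = 0.978).

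FPKM are scaled to each sample's total, and the median of all genes depends on that scaling. With median-of-ratios size factors the median change in COM against NC moved from -0.27 to -0.003, and the genes that passed went from 1382 higher and 4423 lower to 2502 higher and 2570 lower. On that scale 5 of the 9 genes passed higher: Ddit3, Atf4 (0.67, adjusted p = 0.00304), Trib3 (0.71, adjusted p = 0.0298), Asns (0.39, adjusted p = 0.0147) and Ddit4 (0.74, adjusted p = 0.0397). Psat1 was the 1 gene that passed lower there, and Phgdh missed the threshold (-0.82, adjusted p = 0.0863). Sesn2 turned from -0.23 to 0.02 without passing. On FPKM as deposited, the count of genes that passed higher also moved from 1 to 4 without COM-6, 4 without COM-4, COM-5 and COM-6, 4 with sample weights, which give less weight to libraries that fit poorly, and 3 with all 18 samples in the fit. The number of these genes that rose with COM therefore depends on the fit, while Ddit3 was among them in each of these. COM-6 was the lowest COM sample for Atf4, Trib3 and Ddit4, so the count without it is not support for a rise.

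With Met, most of the genes were higher than in COM. Of 10 genes tested, 7 passed higher (Atf4, Ddit3, Trib3, Asns, Psat1, Phgdh and Chac1) and 1 lower (Ddit4), against 5.77% of all 10364 genes in the higher and 7.58% in the lower direction. Their median change was 0.76, beside 0.003 over all genes. At 2-fold or more, Ddit3 and Trib3 were higher and Ddit4 lower, beside 0.608% and 1.61% of all genes. The groups of 6 did not overlap for Atf4, Ddit3, Asns, Phgdh and Chac1, beside 11.2% of all genes. Chac1 reached the filter only through its level in COM+Met, so its place in these counts and in the median follows in part from the filter. Size factors and quantile normalisation left the median of all genes in this comparison within 0.02 of 0.

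Among the bZIP factors, Atf4 lay between 133 and 159 FPKM in COM+Met (median 142), above all COM samples. It rose by 0.65 (SE 0.15, 95% interval 0.32 to 0.98, adjusted p = 0.0136). Ddit3 lay between 65.1 and 91.1 FPKM (median 77.2), also above all COM samples. Its rise of 1.22 (SE 0.24, 95% interval 0.69 to 1.75, adjusted p = 0.00622) was the 45th largest of 10364. Atf3 was at 111 to 126 FPKM in COM+Met (median 116), above COM-1, COM-2, COM-3 and COM-6 and below COM-4 and COM-5. Its change of 0.77 (95% interval -0.24 to 1.79, adjusted p = 0.304) became 1.92 without COM-4, COM-5 and COM-6 and -0.37 without COM-1, COM-2 and COM-3. Because Atf3 divides along these sets, no p-value is given for them.

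Trib3 lay between 5.62 and 9.31 FPKM in COM+Met (median 6.76), and only COM-4, at 5.97, reached into that range. It rose by 1.09 (SE 0.25, 95% interval 0.56 to 1.62, adjusted p = 0.0121), and without COM-1, COM-2 and COM-3 by 0.97 with an adjusted p of 0.0604. Chac1, a gene that the ATF4 and CHOP branch induces, was low throughout but lay between 1.25 and 2.33 FPKM in COM+Met (median 1.62), above all COM samples. It was higher by 0.84 (SE 0.16), with means of 1.72 and 0.540 FPKM. Chac1 entered the test only through COM+Met, so no p-value is given as support.

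The 3 enzymes of amino acid synthesis were higher with Met. Asns, which carries the C/EBP-ATF core at -23, lay between 18.6 and 23.8 FPKM (median 20.2). These values were clear of the COM range of 10.5 to 12.7. Asns rose by 0.74 (SE 0.08, 95% interval 0.57 to 0.91, adjusted p = 0.000154), the smallest adjusted p of the 10 genes. Phgdh lay between 30.9 and 47.7 FPKM (median 35.4), above all COM samples, and rose by 0.99 (SE 0.26, adjusted p = 0.0244). It missed the threshold without COM+Met-1 (0.0562), COM+Met-2 (0.0545) or COM+Met-6 (0.0534). Psat1 lay between 2.65 and 3.56 FPKM (median 2.91) and overlapped COM, where COM-1 was at 3.12. It rose by 0.53 (SE 0.15, adjusted p = 0.0346), and its adjusted p passed 0.05 without any of COM+Met-2 to COM+Met-6, COM-2, COM-4 or COM-5, up to 0.0819.

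Of the 2 mTORC1 inhibitors, Ddit4 passed lower and Sesn2 did not pass. Ddit4 lay between 2.09 and 4.70 FPKM in COM+Met (median 2.92), below 5 of the 6 COM samples and overlapping COM-6 at 2.42. It fell by 1.06 (SE 0.30, 95% interval -1.69 to -0.42, adjusted p = 0.0323). The adjusted p exceeded 0.05 when any of COM-1 to COM-3 or COM+Met-2 to COM+Met-6 was left out, up to 0.0761. Without COM-1, COM-2 and COM-3, the highest COM samples for Ddit4, the change was only -0.49, and no p-value is given. Sesn2 lay between 6.01 and 8.79 FPKM (median 6.94), and its change of 0.50 (95% interval 0.14 to 0.87, adjusted p = 0.0677) missed the threshold. Without COM-6, the lowest COM sample for Sesn2, it was 0.34, and no p-value is given for that fit. The ratio of Sesn2 to Ddit4 was 0.459 to 0.946 in COM and 1.45 to 3.12 in COM+Met, without overlap.

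Against NC, the COM+Met samples had 7 of the 10 genes higher and 2 lower, in a comparison in which 19.3% of 10786 genes passed higher and 55.9% lower and the median gene changed by -0.26. Atf4, Ddit3 and Trib3 were higher by at least 2-fold and Psat1 lower, beside 5.66% and 13.6% of all genes. For 7 of the 10 genes (Atf4, Atf3, Ddit3, Trib3, Asns, Psat1 and Chac1) the groups did not overlap, beside 57.6% of all genes. Ddit3 rose by 2.79 (SE 0.09, adjusted p = 2.71e-11), with means of 10.3 and 77.5 FPKM. Trib3 rose by 1.60 (SE 0.11, adjusted p = 4.17e-08), Atf4 by 1.02 (SE 0.07, adjusted p = 2.67e-08) and Atf3 by 0.83 (SE 0.06, adjusted p = 4.91e-08). Asns rose by 0.85 (adjusted p = 1.25e-05) and Chac1 by 0.84. Chac1 averaged 0.529 FPKM in NC and again entered the test, and so these counts, only through COM+Met.

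Psat1 and Phgdh differed in this last comparison, as far as their own values go. Psat1 was lower in COM+Met than in NC, at 3.01 ± 0.356 against 17.2 ± 9.54 FPKM, a fall by 2.04 (adjusted p = 1.32e-05). Phgdh, at 36.7 ± 6.24 against 46.6 ± 30.4 FPKM, changed by -0.13 (95% interval -0.83 to 0.58, adjusted p = 0.736). Without NC-5 and NC-6, which held the highest Phgdh values of NC, the change was 0.42. Leaving them out could only raise it, so no p-value is given. Sesn2 was higher by 0.27 (adjusted p = 0.0239), which missed the threshold without COM+Met-2 (0.0550) or NC-5 (0.0525). Ddit4 was lower by 0.56 on the log2 scale (change -0.56, adjusted p = 0.0207), which missed it with size factors (-0.31, adjusted p = 0.164).

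**Figure D3:**
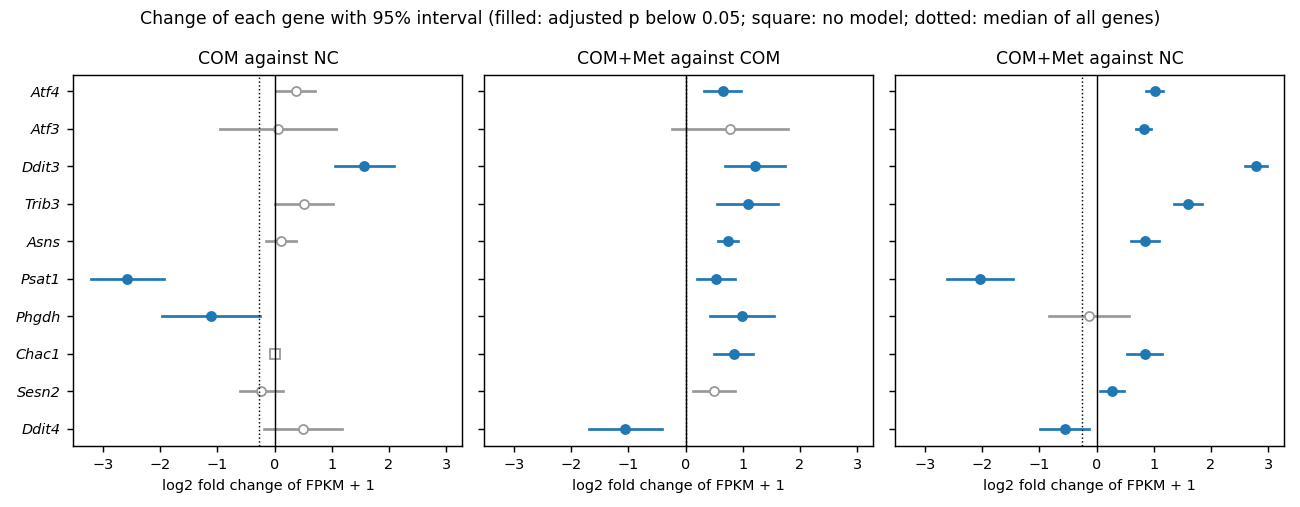
Change of each of the 10 genes on the log2(FPKM + 1) scale (horizontal axis) with its 95% interval in the 3 comparisons, filled where the adjusted p was below 0.05, with the square for Chac1 below the filter. Intervals are wide for Atf3 in both comparisons that use COM (-0.96 to 1.07 and -0.24 to 1.79), and in COM+Met against COM 7 filled points lie right of 0 and Ddit4 lies left of it.

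The related pathways were read from lists of genes, given as counts beside the share of all genes that passed in the same direction. Counts under alternative fits are to be read beside all genes in the same fit. In COM against NC, these were 2502 higher and 2570 lower of 10830 with size factors, and 1687 and 4824 of 10917 without COM-6. Without COM-4 to COM-6 they were 1939 and 4016 of 10958, and without COM-1 to COM-3 1274 and 5475 of 10900. Without NC-5 and NC-6 they were 1156 and 3502 of 10829. Among 20 cytosolic aminoacyl-tRNA synthetases, which load tRNAs with amino acids, 7 passed higher and 0 lower in COM+Met against COM, beside 5.77% and 7.58% of all genes, and all 20 changes were above 0 (median 0.27, beside 0.003). Yars rose by 0.62 (6.52 to 10.4 FPKM, adjusted p = 0.00394), Sars by 0.54 (30.0 to 44.1 FPKM, adjusted p = 0.00491) and Aars by 0.49 (25.6 to 36.0 FPKM, adjusted p = 0.00622). In COM against NC, Cars rose (0.38, adjusted p = 0.00675) and 5 of the 20 were lower, beside 12.7% and 40.6% of all genes, led by Vars (-0.70, adjusted p = 0.0391), Gars (-0.66, adjusted p = 0.00580) and Lars (-0.58, adjusted p = 0.000459). That direction depended on the scaling: with size factors 7 were higher and 1 lower, and without NC-5 and NC-6 there were 1 and 2. Without COM-1, COM-2 and COM-3 there were 1 and 9, and without COM-4, COM-5 and COM-6 2 and 2. The COM+Met comparison had 12 higher and 0 lower without COM-1, COM-2 and COM-3. Without COM-4, COM-5 and COM-6 it had 10 higher and 3 lower, in a fit in which all genes that passed went from 598 higher and 786 lower to 1850 and 4499. In that comparison all genes that passed were 1646 and 793 of 10211 without COM-1 to COM-3. They were 1101 and 1652 of 10363 without COM-6, and 816 and 1002 of 10461 with size factors.

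Of 16 other genes reported as ATF4 targets or partners, 5 were higher and 0 lower in COM+Met against COM, beside 5.77% and 7.58% of all genes, and 11 did not pass (median 0.32). There were 6 higher and 4 lower without COM-4, COM-5 and COM-6, and without COM-1, COM-2 and COM-3 11 and 0. Gdf15, a secreted stress cytokine, was at 21.6 ± 6.42 FPKM in NC, 6.76 ± 3.52 in COM and 17.5 ± 3.63 in COM+Met, a rise of 1.35 with Met (adjusted p = 0.00559) beside a fall by 1.62 in COM against NC (adjusted p = 0.000524). Atf5, a bZIP factor close to ATF4, rose by 1.32 with Met (15.0 to 36.2 FPKM, adjusted p = 0.00850), and Aldh18a1, an enzyme of proline synthesis, by 0.58 (adjusted p = 0.0409). Against NC, COM had 3 higher and 5 lower of the 16, beside 12.7% and 40.6% of all genes, and 5 higher and 3 lower with size factors. There were 5 and 6 without COM-6, and 5 and 4 without COM-4, COM-5 and COM-6. Nupr1 rose by 1.00 (16.4 to 33.3 FPKM, adjusted p = 3.88e-05), Jdp2 by 0.61 (adjusted p = 0.0119) and Xpot by 0.33 (adjusted p = 0.00383). Herpud1, a part of ER-associated degradation, fell by 1.61 (39.7 to 14.2 FPKM, adjusted p = 0.00106), and Pck2 fell by 0.97 (adjusted p = 0.00734).

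In the list of serine and one-carbon enzymes, which pass carbon from serine to folate, 8 of 11 were lower and 1 higher in COM against NC, beside 40.6% and 12.7% of all genes (median -0.92, beside -0.27). Not all of the 8 averaged 1 FPKM or more in COM, and those below it, such as Shmt1 (named after its values were seen), entered the test only through NC. With size factors these counts were 6 and 1, and without NC-5 and NC-6 they were 5 and 1 of 10 tested. Tyms fell by 1.30 (4.34 to 1.07 FPKM, adjusted p = 0.000308), Shmt2 by 1.16 (11.5 to 4.57 FPKM, adjusted p = 0.000450) and Gcsh by 1.16 (17.1 to 7.29 FPKM, adjusted p = 0.000278). Mthfd2, the mitochondrial folate dehydrogenase, rose by 1.21 (15.6 to 37.2 FPKM, adjusted p = 8.93e-05). In COM+Met against COM, 1 of 9 was higher and 1 lower, beside 5.77% and 7.58% of all genes: Shmt2 rose by 0.80 (adjusted p = 0.00442) and Mthfd1l fell by 0.69 (adjusted p = 0.00129). There were 3 higher and 1 lower with size factors, 1 and 3 without COM-4, COM-5 and COM-6, and 4 and 1 of 8 tested without COM-1, COM-2 and COM-3.

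Of 10 amino acid transporters tested, 3 were higher and 0 lower with Met, beside 5.77% and 7.58% of all genes, namely Slc7a1, which carries basic amino acids (0.74, adjusted p = 0.00291), Slc38a7 (0.53, adjusted p = 0.0232) and Slc38a1 (0.24, adjusted p = 0.0345). Without COM-4, COM-5 and COM-6 there were 3 higher and 4 lower, without COM-6 alone 3 and 2, and without COM-1, COM-2 and COM-3 5 and 0. In COM against NC, 2 were higher and 4 lower, beside 12.7% and 40.6% of all genes. The glycine transporter Slc6a9 rose by 1.61 (1.18 to 6.11 FPKM, adjusted p = 0.000448) and the cystine carrier Slc7a11 by 0.55 (adjusted p = 0.0315). Slc7a5 fell by 1.37 (8.19 to 2.67 FPKM, adjusted p = 0.000183), Slc1a5 by 1.14 (adjusted p = 0.00199) and Slc38a1 by 0.70 (adjusted p = 2.33e-05). Without COM-1, COM-2 and COM-3 these counts were 1 and 6, and without NC-5 and NC-6 they were 1 and 4.

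Upstream of ATF4, 14 genes of the eIF2α kinases, phosphatase subunits and partners were tested. In COM against NC, 2 were higher and 3 lower, beside 12.7% and 40.6% of all genes. Eif2ak2 (PKR, the kinase that senses double-stranded RNA) rose by 1.36 (12.9 to 37.0 FPKM, adjusted p = 0.000351) and Ppp1r15a (GADD34, the inducible phosphatase subunit) by 0.83 (adjusted p = 0.0159). Eif2ak3 (PERK, the ER kinase) fell by 0.97 (11.1 to 5.56 FPKM, adjusted p = 0.00449), and the eIF2B subunits Eif2b5 (-0.32, adjusted p = 0.00746) and Eif2b3 (-0.31, adjusted p = 0.0282) were lower. With size factors the list had 6 higher and 1 lower in place of 2 and 3, beside 2502 and 2570 of all 10830 genes. Without NC-5 and NC-6 it had 1 and 2. Without COM-1, COM-2 and COM-3 it had 1 and 6, beside 1274 and 5475 of all 10900 genes. With Met, 3 were higher and 0 lower, beside 5.77% and 7.58% of all genes: Impact, an inhibitor of the kinase GCN2 (0.60, adjusted p = 0.00366), Ppp1r15a (0.58, adjusted p = 0.00613) and Eif2b5 (0.26, adjusted p = 0.0452). There were 5 higher and 5 lower without COM-4, COM-5 and COM-6, and without COM-1, COM-2 and COM-3 5 and 1. Ppp1r15a stood at 9.78 ± 4.33 FPKM in NC, 17.0 ± 3.21 in COM and 25.5 ± 1.28 in COM+Met.

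The other arms of the ER stress response, IRE1 and ATF6, with ER chaperones, had 9 of 24 genes higher and 3 lower in COM against NC, beside 12.7% and 40.6% of all genes (median 0.17). Hspa5 (BiP) rose by 0.81 (165 to 289 FPKM, adjusted p = 5.39e-05), Calr by 0.78 (adjusted p = 0.00249) and Hyou1 by 0.72 (adjusted p = 0.00716). The proteases Mbtps1 (-0.68, adjusted p = 0.00778) and Mbtps2 (-0.36, adjusted p = 0.00625), which activate ATF6, and Sel1l (-0.53, adjusted p = 0.0120) were lower. The count of higher genes was 15 with size factors, 15 without COM-4, COM-5 and COM-6, and 3 without COM-1, COM-2 and COM-3, where 6 were lower. With Met, 0 of the 24 passed higher and Xbp1 passed lower (-0.34, adjusted p = 0.0256), beside 5.77% and 7.58% of all genes and with a median of -0.04. Without COM-4, COM-5 and COM-6, 14 of the 24 were lower and 1 higher with Met, beside 4499 and 1850 of all 10373 genes. Without COM-1, COM-2 and COM-3 there were 0 lower and 3 higher, beside 793 and 1646 of all 10211 genes.

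**Figure D4:**
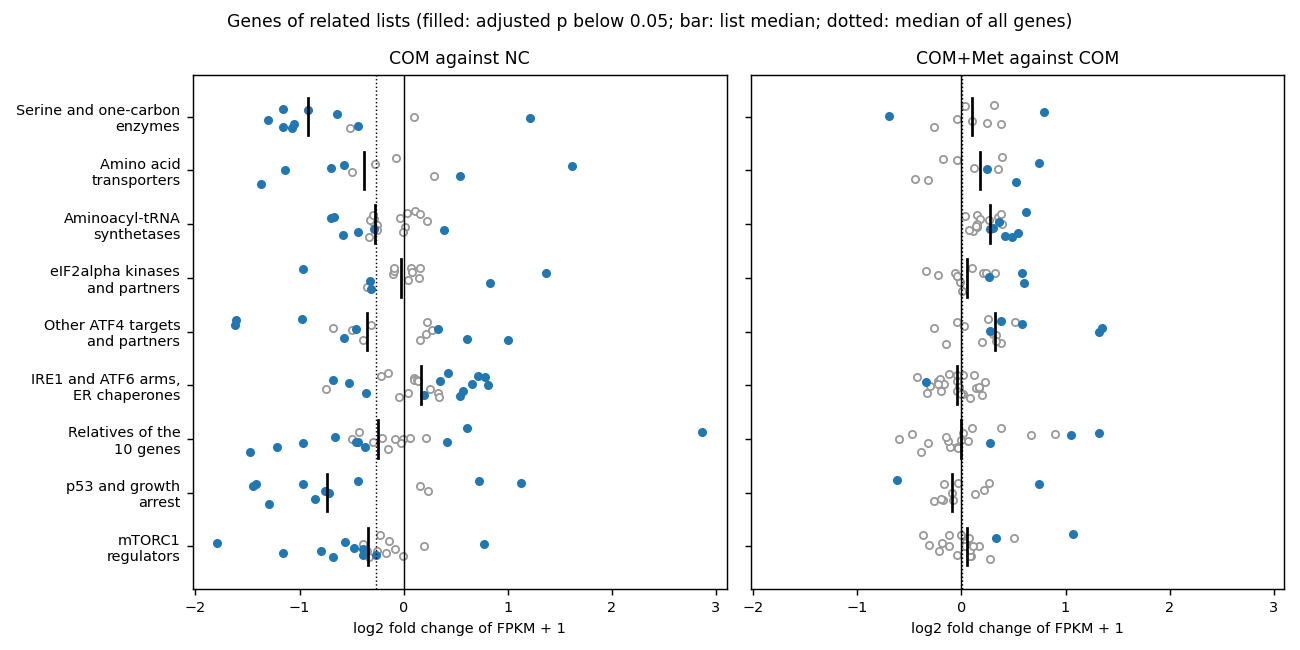
Change of each gene of 9 related lists on the log2(FPKM + 1) scale (horizontal axis) in COM against NC and COM+Met against COM, filled where the adjusted p was below 0.05, with a bar at the median of each list and a dotted line at the median of all genes. With Met the 20 aminoacyl-tRNA synthetases all lie right of 0 (median 0.27), and in COM against NC the serine and one-carbon enzymes have the lowest median (-0.92).

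For each of the 9 genes that averaged 1 FPKM or more across all 18 samples, the gene with the nearest profile was sought among 10324 genes, by the root mean square difference of z scores (0 for identical profiles). The nearest to Atf4 was Slc6a8 (0.255), whose means were 25.3 FPKM in NC, 31.0 in COM and 45.9 in COM+Met. Trib3 was nearer to Atf4 than Slc6a8 was (0.237). The nearest to Ddit3 was Ctsb, cathepsin B (0.170), at 651, 1120 and 1756 FPKM, and the nearest to Psat1 was Eef2k (0.134), at 4.69, 0.373 and 0.598 FPKM. For Trib3 it was Nudcd3 (0.251), for Asns Mreg (0.293), for Phgdh 1700037H04Rik (0.318), for Ddit4 Grap (0.326), for Atf3 Lilrb4a (0.384) and for Sesn2 Pex26 (0.396). Among these 9 genes, which leave out Chac1, the nearest to Ddit4 was Sesn2, but at a distance of 1.40. For the others the nearest of the 9 was at 0.237 to 0.868, so Ddit4 had no gene of like profile among them. These are descriptions of the same 18 samples and share the scaling of each library.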

How the data were processed

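The 18 RNA-seq samples of BMDMs were grouped by their labels into NC, COM and COM+Met with 6 in each. The authors deposited FPKM values per gene and sample. Bowtie 0.12.2 and the builds mm9 and mm8 appear without their roles in the submitters' processing notes. Which program calculated FPKM is not given in the sources used here. No coordinates are in the table. Overlapping genes were read from GENCODE M21 on GRCm38 and promoters from RefSeq on GRCm38.p6, which are not the builds above. All 18 sample columns were used, and 0 pairs of libraries were identical. The values did not give back whole reads (the most common ratio between low values of 2 libraries covered 0.206% to 0.358% of genes), so depth is unknown and no counting interval or detection limit is given.

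Values were transformed to log2(FPKM + 1), so that changes of low genes are understated. limma 3.58.1 (eBayes with a trend, R 4.3.3) was run on genes that averaged 1 FPKM or more in the 12 samples of a comparison, and p-values were adjusted by Benjamini-Hochberg across every gene in the fit. Exact permutation tests were two-sided, over the mean log2 value. The fit was tested on simulated data. Python 3.11.15 with numpy 2.4.6, pandas 2.3.3, scipy 1.17.1 and matplotlib 3.10.9 served for tables and plots.

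The 10 genes and the lists were chosen with earlier results of these data known, so counts over them are descriptions, and no test over a list was run. Besides the 10 genes, the text names in each list up to 3 genes with the largest rise and up to 3 with the largest fall among those that passed, in COM against NC and COM+Met against COM, and the gene with the nearest profile to each of them that averaged 1 FPKM or more. The fit was repeated with pseudocounts of 0.1 and 5, without a filter, with a filter of 5 FPKM, quantile normalisation, median-of-ratios size factors, a block for the replicate number, a joint fit of all 18 samples, sample weights, each sample left out in turn and the sets of samples named in the text left out. These sets came from differences between libraries seen in these data, not from the labels. The use of the alternatives on the lists was decided on after seeing the data.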

Additional observations from a re-analysis of the deposited data

Results flagged for a closer look

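In 30 groups of 6 (10 genes in 3 groups), the gap of an extreme sample to its neighbour was compared with the range of the group by Dixon's criterion, which chance passes in about 1 of 20 groups. It was passed 3 times, each time by COM-6 as the lowest sample: Phgdh at 6.36 FPKM (gap 0.915 of the range), Sesn2 at 2.29 FPKM (0.652) and Atf4 at 57.8 FPKM (0.628). COM-6 was also the lowest COM sample for Trib3, Chac1 and Ddit4, but not for Asns, Psat1, Atf3 or Ddit3, the last pair of which was at 108 and 36.4 FPKM. It was the COM library with the lowest correlations to the others over all genes (0.888 to 0.935). The cause was not tested.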

How the results depend on the processing

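Of the changes of single genes recomputed under the alternatives, 174 of 215 in COM against NC, 189 of 228 in COM+Met against COM and 203 of 217 in COM+Met against NC kept their direction and their side of the threshold, and 11, 1 and 5 turned direction. In COM against NC, the 1 gene that passed higher became 5 with size factors, 5 with quantile normalisation, 3 with all 18 samples, 4 with sample weights, 4 without COM-4, COM-5 and COM-6, 2 without COM-1, COM-2 and COM-3, and 1 to 4 when a sample was left out (4 without COM-6). The 2 that passed lower became 1 with no filter, size factors or without NC-5 and NC-6, and 1 to 2 when a sample was left out. With sample weights or without COM-4 to COM-6 it stayed at 2, with Atf3 in the place of Phgdh. COM-4 to COM-6 held the highest Atf3 values of COM, so the call without them follows from leaving them out. Atf3, Ddit3 and Ddit4 were among the genes that divided between COM-1 to COM-3 and COM-4 to COM-6. Counts without either set are therefore descriptions only. At 2-fold, the 1 higher became 2 without COM-4 to COM-6 or COM-1 to COM-3, and the 2 lower became 1 with a pseudocount of 5, no filter, size factors, quantile normalisation, without NC-5 and NC-6, and 1 to 2 with a sample left out. Atf3 turned from 0.05 to -1.03 with sample weights, -0.024 without NC-5 and NC-6 and -1.09 without COM-4 to COM-6, and ran from -0.24 to 0.30 when a sample was left out. Sesn2 turned from -0.23 to 0.016 with size factors, 0.069 with quantile normalisation and 0.021 without COM-4 to COM-6. Asns turned to -0.029 without NC-5 and NC-6, and Ddit4 to -0.067 without COM-1 to COM-3.

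In COM+Met against COM, the 2 genes higher at 2-fold became 4 with a pseudocount of 0.1, 1 with a pseudocount of 5 and 1 to 3 with a sample left out (1 without COM-6). The 1 lower (Ddit4) became 0 with no filter, without COM-1 to COM-3 and, at 2-fold, with a pseudocount of 5, and 0 to 1 with a sample left out. Atf3 turned to -0.37 without COM-1 to COM-3. In COM+Met against NC, the 3 higher at 2-fold became 1 with a pseudocount of 5 and 5 with size factors or quantile normalisation, and the 2 lower became 1 with a filter of 5 FPKM, size factors, quantile normalisation or all 18 samples. Phgdh turned from -0.13 to 0.18 with size factors, 0.33 with sample weights and 0.42 without NC-5 and NC-6, and ran from -0.26 to 0.10 with a sample left out. Size factors change the scale and the filters change the genes tested. For the other changes the cause was not tested.

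Same-numbered samples did not deviate together (correlations -0.222 to 0.057, with 0 pairs over 0.1), so no pairing by number was seen. A small shared effect could be hidden by the differences between libraries of a group, and the labels do not say whether the numbers pair the samples. With the replicate block, COM against NC had 2 genes higher and 1 lower (Ddit4 entered at 0.0295, Phgdh left at 0.0680), and at 2-fold 1 lower. COM+Met against COM had 5 higher and 0 lower, with Psat1 at 0.0718, Phgdh at 0.0506 and Ddit4 at 0.0562. COM+Met against NC had 6 higher, with Sesn2 at 0.0516. Depth is unknown, so the precision of low genes such as Chac1 is unknown too.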

Other observations

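Further lists near the 10 genes are given as counts, as descriptions. Some genes stand in several lists, so the counts are not independent. Atf5, Cebpg and Jdp2 are relatives that were also counted among the other ATF4 targets. Sesn1 is both among the relatives and among the p53 genes. Over all genes, 12.7% passed higher and 40.6% lower in COM against NC, and 5.77% and 7.58% in COM+Met against COM. Counts of all genes under the alternative fits are those given with the aminoacyl-tRNA synthetases. Among relatives of the 10 genes, COM+Met against COM had 3 of 19 higher and 0 lower: Atf5, Batf, a bZIP factor of immune cells (13.9 ± 4.90 to 28.6 ± 3.46 FPKM, change 1.05, adjusted p = 0.00366), and Cebpg, a partner of ATF4 (change 0.27, adjusted p = 0.0312). Without COM-4, COM-5 and COM-6 there were 5 and 5, without COM-6 alone 4 and 3, and without COM-1, COM-2 and COM-3 4 and 1 of 18 tested. In COM against NC, 3 of 20 were higher and 7 lower (3 and 4 with size factors, 2 and 6 without NC-5 and NC-6, 2 and 7 without COM-6). Batf2, which averaged under 1 FPKM in NC and entered the test only through COM, rose by 2.87 (0.777 to 15.8 FPKM, adjusted p = 0.000378), Jdp2 by 0.61 (adjusted p = 0.0119) and Chac2, the relative of Chac1, by 0.42 (adjusted p = 0.0409). Cebpa, a factor of myeloid differentiation, fell by 1.47 (39.9 to 15.6 FPKM, adjusted p = 0.00345), Cebpd by 1.21 (adjusted p = 0.00822) and Sesn1, the relative of Sesn2, by 0.97 (adjusted p = 0.00110).

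Of 20 genes listed as regulators of mTORC1, 2 were higher and 0 lower in COM+Met against COM. There were 3 and 0 with size factors and 2 and 2 without COM-6. Without COM-4, COM-5 and COM-6 there were 2 and 11, beside 1850 and 4499 of all 10373 genes. Without COM-1, COM-2 and COM-3 there were 9 and 1 of 19 tested, beside 1646 and 793 of all 10211 genes. Rragd, a Rag GTPase of the lysosome, was at 2.55 ± 0.303 FPKM in NC, 1.06 ± 0.316 in COM and 3.29 ± 0.229 in COM+Met, a rise of 1.07 with Met (adjusted p = 8.22e-05) beside a fall by 0.80 in COM against NC (adjusted p = 0.000115). Wdr24 rose by 0.33 with Met (adjusted p = 0.0450). In COM against NC, 9 of the 20 were lower (6 with size factors) and 1 higher (3 with size factors), Castor2 (0.77, adjusted p = 0.00953). Deptor fell by 1.79 (adjusted p = 2.00e-05). Tsc22d3, which fell by 1.15 (adjusted p = 0.000405), was counted in this list but is not part of the complex of Tsc1 and Tsc2. Without COM-1, COM-2 and COM-3 there were 14 lower and 0 higher, beside 5475 and 1274 of all 10900 genes. Without COM-4, COM-5 and COM-6 there were 7 and 3, and without COM-6 alone 8 and 2. Of 12 p53 and growth arrest genes, 8 were lower and 2 higher in COM against NC (7 and 2 with size factors, 7 and 1 without NC-5 and NC-6). Phlda3 fell by 1.45 (adjusted p = 0.00860), Pmaip1 by 1.42 (adjusted p = 7.60e-06) and Bbc3 by 1.29 (adjusted p = 0.00375), while Mdm2 rose by 1.13 (adjusted p = 0.00518) and Gadd45b by 0.72 (adjusted p = 0.00768). With Met, Phlda3 rose by 0.75 (adjusted p = 0.0271) and Btg2 fell by 0.62 (adjusted p = 0.0115), 1 in each direction. There were 3 higher and 5 lower without COM-4, COM-5 and COM-6, and 0 and 2 without COM-1, COM-2 and COM-3.

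The FPKM ratio of Ddit3 to Atf4 was 0.123 to 0.164 in NC, 0.221 to 0.630 in COM and 0.465 to 0.652 in COM+Met, while that of Atf3 to Atf4 was 0.813 to 1.08, 0.300 to 1.88 and 0.698 to 0.876.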
